A study of Mus musculus with 6 samples.

Results

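Kruppel-like factors (KLFs) were followed in hepatocytes of undamaged mouse liver and of liver regrowing after partial hepatectomy (PHx). The group comprised 10 genes, Klf6, Klf2, Klf3, Klf4, Klf5, Klf9, Klf10, Klf12, Klf13 and Klf15, of the 55450 genes listed in the count tables. They were chosen by gene name with the measured difference between the time points already known, so their own differences are given as a description and carry no p-value. All 10 were found by versioned Ensembl identifier, and 9 had at least 10 counts in at least 3 libraries and entered the model of all genes. Klf5 did not reach that count and is given as counts.

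The samples were bulk RNA-Seq libraries of primary hepatocytes from adult male C57BL/6 mice (C57BL/6J in the study's methods) on a normal diet, isolated by 2-step collagenase perfusion. At 0 h the liver was undamaged and not sham operated (3 libraries), and at 48 h it had been collected 48 h after PHx (3 libraries). Surgery, anaesthesia and regrowth therefore cannot be told apart in this contrast, and no label gives the clock time of collection. The age was 10 to 12 weeks by the labels, and the labels name no transgene or deletion in either group. Gene counts summed to 31419443 to 36346220 per library at 0 h and 31684152 to 33093006 at 48 h. Levels are CPM, counts scaled to a common library size with trimmed mean of M-values (TMM) factors, and a difference is the log2 fold change of 48 h over 0 h with its standard error (SE).

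KLFs are transcription factors that share a block of C2H2 zinc fingers at the end of the protein. The fingers read GC boxes and CACCC boxes in promoters, and the unlike front parts of the proteins recruit activators or co-repressors. KLFs of the same cell can therefore compete for similar sites. In liver, Klf15 and Klf9 are known for nutrient and hormone responses, Klf10 for clock and TGF-beta responses and Klf6 for the response to injury. Klf2 and Klf4 are best known from endothelium.

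Among the 9 members in the model, Klf6 had the largest difference. Klf3 and Klf13 were also higher at 48 h, Klf9, Klf10, Klf12 and Klf15 were lower, and Klf2 and Klf4 overlapped between the time points. Of these 9 members, 3 were called higher and 4 lower at an adjusted p under 0.05. Of all 17037 genes tested, 21.4% were called higher and 19.3% lower. Counted by libraries alone, 3 members had all 48 h libraries above all 0 h libraries and 4 had all below, against 27.8% and 25.0% of the genes tested. Nothing is read from the members' counts, since the members were selected on this contrast. The median difference over all genes tested was -0.0033 (log2), and the middle of the distribution ran from -0.43 to 0.42 between its quartiles.

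**Figure D1:**
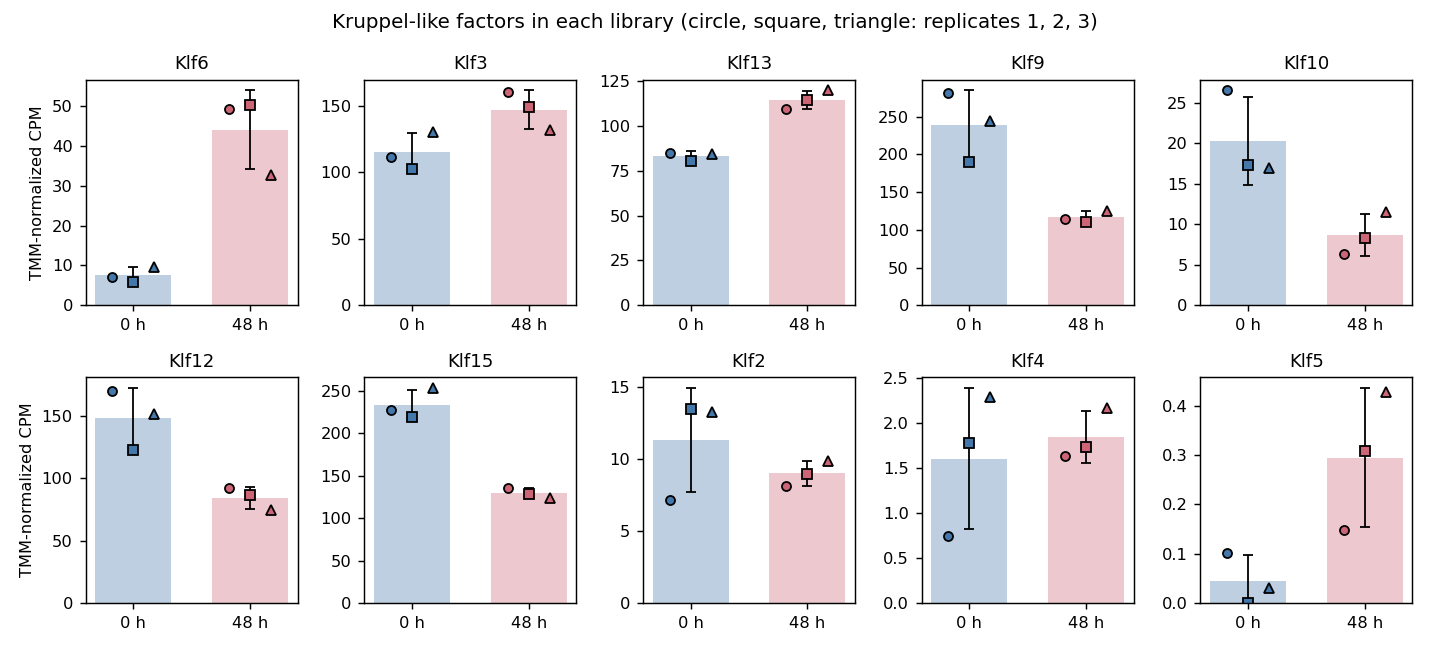
Level of each member in each library, in TMM-normalized CPM on linear axes that start at 0 and differ between panels. Bars are means, whiskers are SD (n = 3) and symbols are replicates 1, 2 and 3, and Klf6 rises from 7.57 to 44.2 CPM while Klf9, Klf10, Klf12 and Klf15 have every 48 h library below every 0 h library.

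Klf6 (ENSMUSG00000000078.7, GRCm38 chr13:5861482-5870394, plus strand) encodes a widely expressed activator that is induced early after tissue injury. It stood at 7.05, 5.93 and 9.73 CPM in 0 h replicates 1, 2 and 3, and at 49.3, 50.4 and 32.8 CPM in 48 h replicates 1, 2 and 3. Its lowest 48 h library, replicate 3, was still above every 0 h library. The means were 7.57 ± 1.95 and 44.2 ± 9.86 CPM (SD, n = 3), a log2 fold change of 2.54 (SE 0.21) or 5.83-fold. Of all genes tested, 2.93% had a higher fold change. The spread between libraries was wider than counting alone gives, with a coefficient of variation of 25.8% at 0 h against 6.48% from the counts and 22.3% at 48 h against 2.55%.

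**Figure D2:**
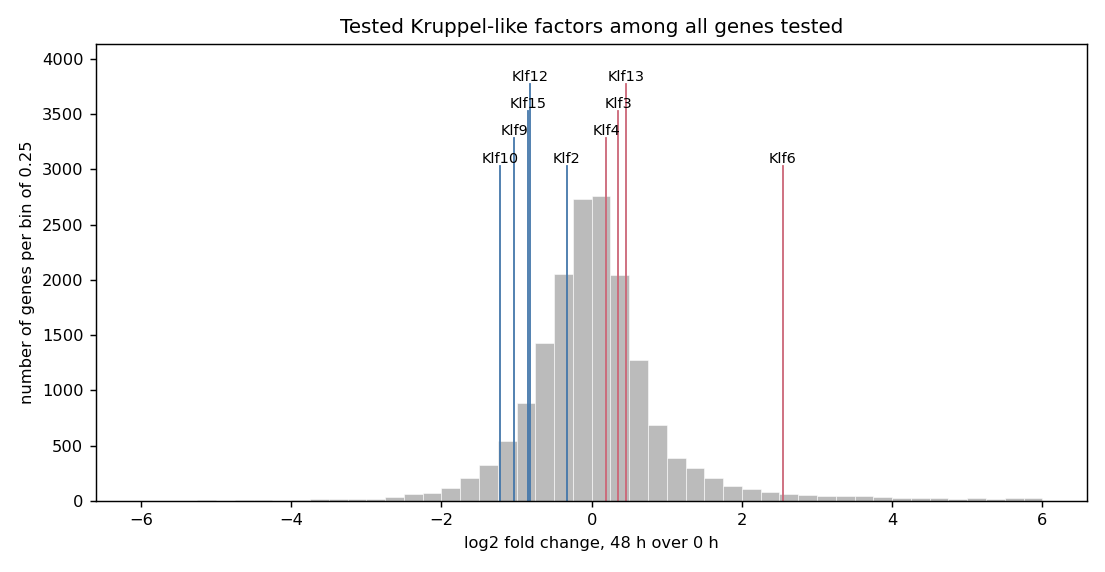
Number of genes tested (vertical axis) per bin of log2 fold change, 48 h over 0 h (horizontal axis, bins of 0.25), with a line at each of the 9 members tested, red above 0 and blue below. Klf6 at 2.54 lies far into the right tail, and the other members lie between -1.22 and 0.46. The axis leaves out 66 genes beyond its ends.

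Klf7 is the nearest relative of Klf6 by the coding sequence of the fingers, where both share 81.1% of 243 bases. It is no member of the chosen group, and its difference is given with the adjusted p of the model of all genes. The gene lists were also chosen with earlier results of these data known. The p-values here and below do not account for that choice. Klf7 stood at 9.74, 9.02 and 10.6 CPM at 0 h and at 6.62, 6.46 and 6.74 CPM at 48 h, and no 48 h library reached a 0 h library. It fell by 0.57 on the log2 scale (SE 0.13, edgeR adjusted p = 0.00667). The call was lost when libraries were scaled by size alone (log2 fold change -0.36, edgeR adjusted p = 0.0522). Antisense genes also cover 39.4% of the exon bases of Klf7. How reads there were counted depends on the strand setting, which is not given in the sources used here. Klf6 and Klf7 thus differed in opposite directions. Per base of exon, Klf6 was 1.42 ± 0.25 times the level of Klf7 at 0 h and 12.4 ± 2.96 times at 48 h (SD, n = 3). If reads in the antisense part were left out as ambiguous, Klf7 is understated per base and both ratios are overstated.

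The finger-coding stretches of this pair are shown because they are the family's common part and a place where reads of paralogs could be confused. Each is the coding strand of 243 bases in the GENCODE M21 transcript ENSMUST00000000080.7 (Klf6, positions 866 to 1108) or ENSMUST00000114086.7 (Klf7, positions 1148 to 1390), and capitals mark the 46 bases that differ.
Klf6: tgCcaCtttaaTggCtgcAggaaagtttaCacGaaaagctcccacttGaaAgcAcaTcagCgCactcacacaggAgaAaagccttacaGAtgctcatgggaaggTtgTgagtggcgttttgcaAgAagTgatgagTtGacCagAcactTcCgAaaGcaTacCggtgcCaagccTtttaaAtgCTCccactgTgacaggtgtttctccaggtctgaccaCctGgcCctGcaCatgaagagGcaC
Klf7: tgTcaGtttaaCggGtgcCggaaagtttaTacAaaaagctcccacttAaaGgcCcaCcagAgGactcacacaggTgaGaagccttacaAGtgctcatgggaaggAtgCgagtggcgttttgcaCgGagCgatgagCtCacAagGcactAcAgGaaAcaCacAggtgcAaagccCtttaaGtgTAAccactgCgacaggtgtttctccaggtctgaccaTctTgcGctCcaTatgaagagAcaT
The longest run of identical bases in this pair is 26. Over the 136 pairs of the 17 KLF genes, identity of the finger-coding stretch ran from 52.7% to 83.1%. Identical runs were searched over all annotated transcripts of each gene, at any position, and not only in the fingers. The longest run of a pair had a median of 14 bases, and the longest of all was 41 bases, in Klf3 and Klf12. The read length is not given in the sources used here.

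**Figure D3:**
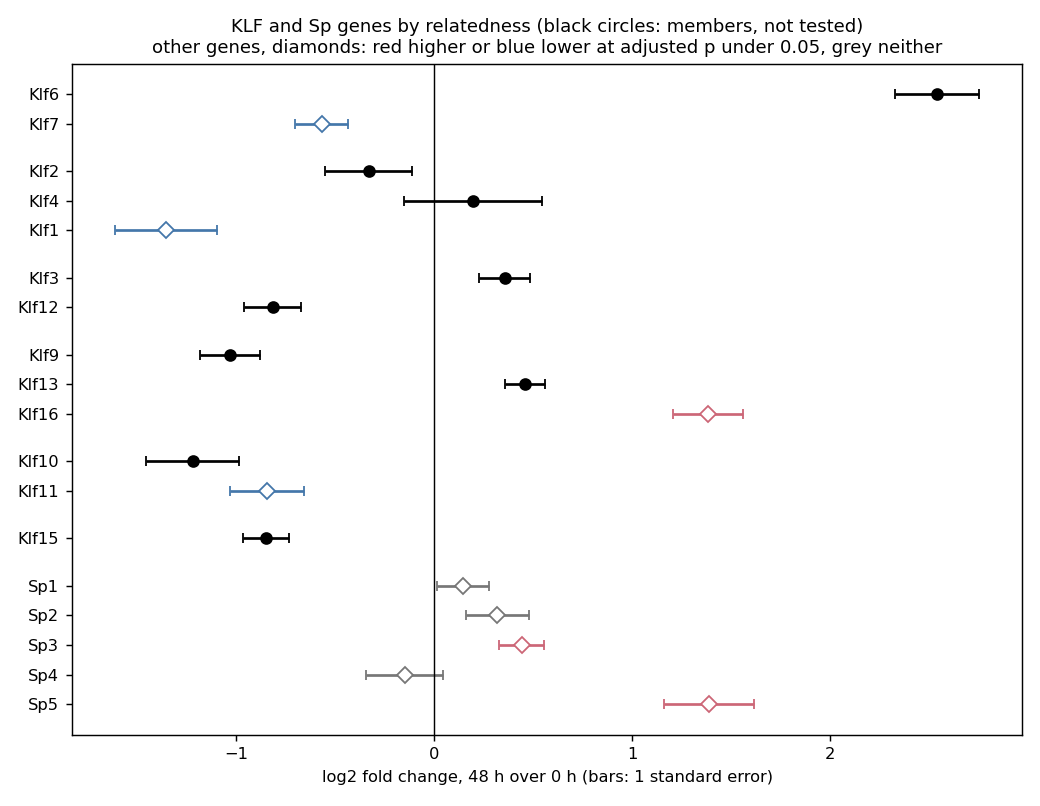
Log2 fold change of 48 h over 0 h (horizontal axis) for KLF and Sp genes grouped by relatedness, with bars of 1 SE (3 libraries per time point). Black circles are members, with no test, open diamonds are other genes, coloured red or blue at an adjusted p under 0.05, and Klf6 and Klf7, Klf3 and Klf12, and Klf9 and Klf13 lie on opposite sides of 0.

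Klf3 and Klf12 encode repressors that bind the co-repressor CtBP, and their fingers are each other's nearest relatives (78.2% of bases). Klf3 (ENSMUSG00000029178.14, chr5:64803388-64832901, plus strand) stood at 112, 103 and 131 CPM at 0 h and at 160, 149 and 132 CPM at 48 h. The highest 0 h library and the lowest 48 h library of Klf3 lay close together, and its difference was 0.36 (SE 0.13, log2). That difference stood at the edge of the threshold: Klf3 was no longer called in 9 of 16 alternative settings. These were leaving out 0 h replicate 1 (0.33) or 2 (0.27) or 48 h replicate 1 (0.29) or 2 (0.35), the factors of DESeq2 (0.35), upper quartile factors (0.27), TMM factors from protein-coding genes (0.31), no filter on low counts (0.34) and the replicate block (0.36). An antisense gene, Gm20033, covers 3.59% of its exon bases.

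Klf12 (ENSMUSG00000072294.5, chr14:99870632-100284679, minus strand) moved the other way. It stood at 170, 123 and 152 CPM at 0 h and at 92.0, 86.3 and 74.5 CPM at 48 h, with every 48 h library below every 0 h library. The means were 148 ± 23.9 and 84.3 ± 8.96 CPM (SD, n = 3), a log2 fold change of -0.82 (SE 0.14). Per base of exon, Klf3 was 0.487 ± 0.069 times the level of Klf12 at 0 h and 1.09 ± 0.013 times at 48 h. With the longest transcript in place of all exons, the same ratio was 0.885 ± 0.126 at 0 h and 1.97 ± 0.024 at 48 h. The third CtBP-binding relative, Klf8, had 1 count in all at 0 h and 1 at 48 h.

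Klf9, Klf13 and Klf16 form a subfamily of short KLFs that recruit the Sin3 co-repressor. Klf9 (ENSMUSG00000033863.2, chr19:23141226-23168134, plus strand) is induced by glucocorticoid and thyroid hormone. It stood at 282, 190 and 244 CPM at 0 h and at 114, 111 and 125 CPM at 48 h. Its 48 h libraries were close together and all below the lowest 0 h library. The means were 239 ± 46.2 and 117 ± 7.85 CPM (SD, n = 3), a log2 fold change of -1.03 (SE 0.15) or 2.05-fold lower.

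Klf13 (ENSMUSG00000052040.10, chr7:63886351-63938915, minus strand), known from T lymphocytes and heart, was the steadiest member among replicates. It stood at 85.1, 80.5 and 84.6 CPM at 0 h and at 110, 114 and 120 CPM at 48 h. The log2 fold change was 0.46 (SE 0.10), and the coefficients of variation were 3.05% and 4.47%, against 1.96% and 1.58% from counting. Per base of exon, Klf13 was 0.229 ± 0.039 times the level of Klf9 at 0 h and 0.629 ± 0.028 times at 48 h (SD, n = 3), so the fall of Klf9 and the higher Klf13 brought the pair closer together. Klf16, no member, was the nearest relative of Klf13 by its fingers (75.3% of bases) and rose from 4.90, 4.45 and 4.55 CPM to 14.9, 9.70 and 11.7 CPM (log2 fold change 1.38, SE 0.18, edgeR adjusted p = 0.000154).

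The finger-coding stretches of Klf9 and Klf13 are shown because both are members and their differences were opposite in sign. Capitals mark the 66 of 243 bases that differ (72.8% identity). They are coding-strand sequence of the GENCODE M21 transcripts ENSMUST00000036884.2 (Klf9, positions 962 to 1204) and ENSMUST00000063694.9 (Klf13, positions 877 to 1119). Over all annotated transcripts of both genes, at any position, the longest identical run was 16 bases.
Klf9: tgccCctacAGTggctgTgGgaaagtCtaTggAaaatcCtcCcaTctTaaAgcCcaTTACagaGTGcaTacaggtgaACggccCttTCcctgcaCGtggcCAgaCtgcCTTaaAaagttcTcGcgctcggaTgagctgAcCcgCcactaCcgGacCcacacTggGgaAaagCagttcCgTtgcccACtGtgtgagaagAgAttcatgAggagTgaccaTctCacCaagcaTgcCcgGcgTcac
Klf13: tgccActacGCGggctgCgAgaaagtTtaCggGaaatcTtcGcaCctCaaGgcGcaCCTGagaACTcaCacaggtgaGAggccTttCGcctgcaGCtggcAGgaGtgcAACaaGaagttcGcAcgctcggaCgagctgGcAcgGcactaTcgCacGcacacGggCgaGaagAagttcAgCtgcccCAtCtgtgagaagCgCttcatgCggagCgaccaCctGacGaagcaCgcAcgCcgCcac

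Klf10 and Klf11 encode TGF-beta-inducible factors, and each is the other's nearest relative (76.1% of finger-coding bases). Klf10 (ENSMUSG00000037465.10, chr15:38291463-38300706, minus strand) stood at 26.5, 17.3 and 17.0 CPM at 0 h and at 6.27, 8.33 and 11.5 CPM at 48 h. The libraries of each time point were spread widely but did not overlap, with means of 20.3 ± 5.42 and 8.68 ± 2.61 CPM (SD, n = 3). The log2 fold change was -1.22 (SE 0.23), or 2.33-fold lower. Klf11, no member, fell from 25.6, 14.9 and 23.9 CPM to 13.2, 11.2 and 11.5 CPM (log2 fold change -0.84, SE 0.19, edgeR adjusted p = 0.00495). Unlike the pairs above, both genes were lower, and the ratio of Klf10 to Klf11 per base of exon overlapped between the time points (1.01 ± 0.24 and 0.767 ± 0.271).

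Klf15 (ENSMUSG00000030087.11, chr6:90462576-90475238, plus strand) drives amino acid breakdown and gluconeogenesis in fasting liver. It stood at 227, 219 and 253 CPM at 0 h and at 136, 129 and 124 CPM at 48 h. The time points were far apart relative to their spread, with means of 233 ± 17.9 and 130 ± 5.82 CPM (SD, n = 3) and a log2 fold change of -0.85 (SE 0.11). Within a library, Klf6 was 0.0204 ± 0.0037 times the level of Klf15 per base of exon at 0 h and 0.216 ± 0.042 times at 48 h.

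Klf2 and Klf4 are flow-responsive factors of endothelium, and their fingers are nearest to each other (78.2% of bases). Klf2 (ENSMUSG00000055148.7, chr8:72319033-72321656, plus strand) stood at 7.11, 13.5 and 13.3 CPM at 0 h and at 8.14, 8.98 and 9.85 CPM at 48 h. Klf4 (ENSMUSG00000003032.8, chr4:55527143-55532466, minus strand) stood at 0.749, 1.77 and 2.29 CPM at 0 h and at 1.63, 1.73 and 2.17 CPM at 48 h. In both genes 0 h replicate 1 was the lowest of all libraries, and the time points overlapped. The log2 fold changes were -0.33 (SE 0.22) for Klf2 and 0.19 (SE 0.35) for Klf4. Leaving out 1 library at a time gave Klf2 -0.58 (without 0 h replicate 1) to -0.19 (without 0 h replicate 2). Without 0 h replicate 1, Klf2 counted among the genes called lower and Klf4 was -0.15, of the opposite sign.

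Markers of endothelial cells moved with that library. The summed level of 16 endothelial markers, all detected, was 338, 523 and 514 CPM at 0 h and 237, 270 and 253 CPM at 48 h. Every 48 h library was below every 0 h library (exact two-sided permutation p = 0.1, the smallest that 3 against 3 libraries allow, and 0.175 adjusted over 7 marker lists), and 14 of the 16 markers fell and 0 rose. Among them, Ptprb, a phosphatase of vessels, fell by 0.93 (log2, SE 0.17, edgeR adjusted p = 0.00177), the scavenger receptor Stab2 by 0.73 (SE 0.14, adjusted p = 0.0023) and the TGF-beta co-receptor Eng by 0.90 (SE 0.14, adjusted p = 0.000528), whereas Egfl7 was not called (-0.45, SE 0.23, adjusted p = 0.141). In bulk samples, fewer cells of a type and less RNA per cell cannot be told apart. Relative to that sum, Klf2 was 0.021, 0.0258 and 0.0259 at 0 h and 0.0343, 0.0333 and 0.0389 at 48 h. The same ratio for Klf4 was 0.00221, 0.00339 and 0.00446 at 0 h and 0.00689, 0.00643 and 0.00857 at 48 h. Both ratios had every 48 h library above every 0 h library. The part of endothelial RNA in the Klf2 and Klf4 values was not tested.

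**Figure D4:**
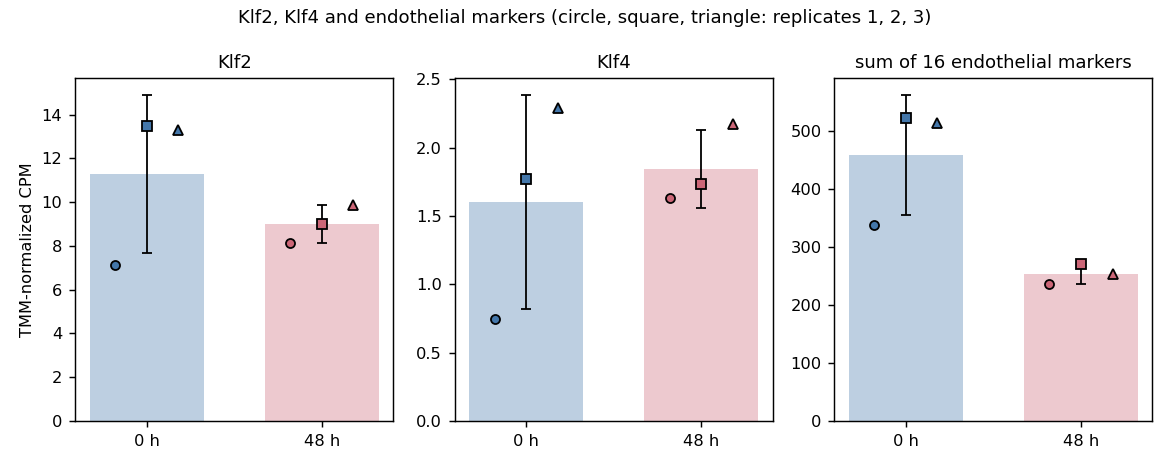
TMM-normalized CPM (vertical axes from 0) of Klf2, Klf4 and the sum of 16 endothelial markers at 0 h and 48 h, with bars for means, whiskers for SD (n = 3) and symbols for replicates 1, 2 and 3. Replicate 1 at 0 h (circle) is the lowest 0 h library in all panels, and the endothelial sum is lower in all 48 h libraries (237 to 270 CPM) than in all 0 h libraries (338 to 523 CPM).

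Other cell types were checked in the same way, and hepatocyte markers were by far the most abundant in every library. The summed 18 hepatocyte markers were 134426 to 155054 CPM at 0 h and 94812 to 125170 CPM at 48 h (exact p = 0.1, adjusted 0.175), with 2 called higher and 7 lower. The 2 higher were the fibrinogen genes Fga (0.88), lost without any single 0 h library or 48 h replicate 1 (0.43 without the latter), and Fgb (0.84), lost without 0 h replicate 1 or 3 and 0.50 without 48 h replicate 1. Alb was the lower marker with the highest level (log2 fold change -0.86, SE 0.21, edgeR adjusted p = 0.00847). Stellate cell markers were 125 to 195 CPM at 0 h and 91.1 to 113 CPM at 48 h (exact p = 0.1, adjusted 0.175), and 1 of 11 tested was higher and 2 were lower. Kupffer cell markers were 83.1 to 124 CPM at 0 h and 119 to 147 CPM at 48 h (exact p = 0.3, adjusted 0.42), with 3 of 12 higher and 0 lower. Replicate 1 at 0 h was also the lowest 0 h library in both of these sums. Cholangiocyte markers overlapped (35.3 to 63.3 and 47.3 to 58.9 CPM, exact p = 1), and 1 of 3 tested, Spp1, was higher (log2 fold change 1.51) with overlapping libraries and a call lost without 0 h replicate 2 or 3 or 48 h replicate 3 (adjusted p 0.068 to 0.0844). Lymphocyte markers overlapped (0.306 to 0.483 and 0.178 to 0.783 CPM, exact p = 0.9), with Cd3d at 0 in every library. Neutrophil markers were 0.12 to 0.408 CPM at 0 h and 0.594 to 1.06 CPM at 48 h (exact p = 0.1, adjusted 0.175), with Mpo and Ltf at 0 in every library. Klf1, a factor of red cell precursors and the third relative of Klf2 and Klf4, fell from 2.55, 1.97 and 2.98 CPM to 1.04, 1.12 and 0.771 CPM (log2 fold change -1.35, SE 0.26, edgeR adjusted p = 0.00197).

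Klf5 (ENSMUSG00000005148.8, chr14:99298691-99315036, plus strand), a factor of proliferating epithelia such as intestinal crypts, was near the limit of detection. It had 3, 0 and 1 counts at 0 h and 5, 11 and 15 counts at 48 h. Each 0 h library was at or under 3 counts, which stood for 0.0839 to 0.102 CPM, and each 48 h library was above that floor. The summed 31 counts at 48 h against 4 at 0 h gave a ratio of rates of 6.95, which rests on those few counts and is a description, as for the other members. Among the other KLF genes, Klf17 had 0 to 3 counts in every library and Klf14 had 0 counts in every library.

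To compare genes with each other, CPM was divided by the union of annotated exons in kb. At 0 h the order was Klf15 (83.6 ± 6.43 CPM per kb), Klf9 (49.5 ± 9.60), Klf12 (21.2 ± 3.43), Klf13 (11.1 ± 0.34), Klf3 (10.2 ± 1.27), Klf2 (6.11 ± 1.96), Klf10 (4.85 ± 1.30), Klf6 (1.72 ± 0.44), Klf4 (0.526 ± 0.257) and Klf5 (0.00848 ± 0.01), all SD with n = 3. The libraries of Klf13 and Klf3 overlapped, as did those of Klf2 and Klf10, and the other neighbours did not. At 48 h the order was Klf15 (46.4 ± 2.09), Klf9 (24.2 ± 1.63), Klf13 (15.2 ± 0.68), Klf3 (13.1 ± 1.28), Klf12 (12.1 ± 1.28), Klf6 (10.1 ± 2.24), Klf2 (4.87 ± 0.46), Klf10 (2.08 ± 0.62), Klf4 (0.605 ± 0.094) and Klf5 (0.0567 ± 0.027). Here Klf3 overlapped Klf12 and Klf12 overlapped Klf6, and the other neighbours did not. Klf6 thus went from rank 8 to rank 6 and stayed below Klf12 in each 48 h library. With the longest transcript as the length, the 48 h libraries of Klf12 (12.6 to 15.6) and Klf6 (7.77 to 11.9) did not overlap.

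**Figure D5:**
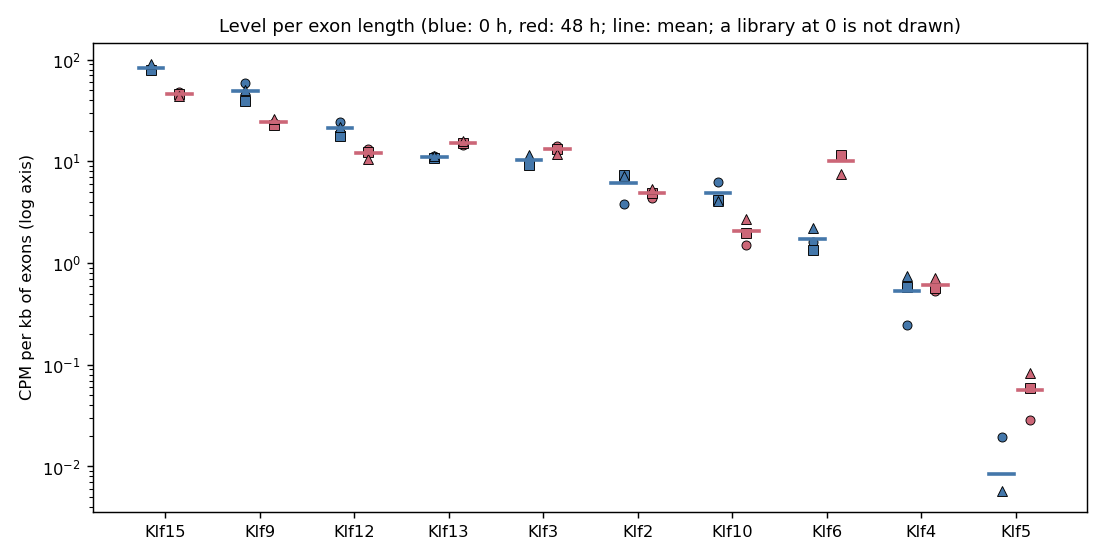
Level of each member per kb of exons (vertical log axis, CPM per kb) in order of its 0 h mean, blue for 0 h and red for 48 h, with symbols for replicates 1, 2 and 3 and a line for the mean (n = 3). Klf15 leads at both times (83.6 and 46.4), Klf6 climbs from 1.72 to 10.1, and the library of Klf5 with no count is not drawn.

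Summed over the 10 members, the level per kb was 198, 169 and 200 at 0 h and 132, 129 and 125 at 48 h. The members together were therefore lower in every 48 h library, at 189 ± 17.6 and 129 ± 3.40 CPM per kb (SD, n = 3). The shares of Klf15 and Klf9 in that sum were 44.4% ± 2.78 and 26.1% ± 3.19 at 0 h and 36.0% ± 0.69 and 18.8% ± 1.71 at 48 h. With the longest transcript as the length they were 42.3% ± 2.62 and 23.8% ± 2.93 at 0 h and 33.1% ± 0.48 and 16.5% ± 1.59 at 48 h. The share of Klf6 was 0.906% ± 0.173 at 0 h and 7.80% ± 1.59 at 48 h, that of Klf13 5.89% ± 0.39 and 11.8% ± 0.84, and that of Klf3 5.42% ± 0.39 and 10.2% ± 0.73. With the longest transcript as the length, Klf3 moved up to 22.0 CPM per kb at 0 h and 28.2 at 48 h, with a 48 h mean above that of Klf9 (26.0) but overlapping libraries (25.3 to 30.7 against 24.6 to 28.0), and its shares to 9.90% and 17.9%, since its annotated exons outrun its longest transcript (11243 against 5221 bases).

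Promoter sequence is shown for the 2 members with non-overlapping higher values whose RefSeq start lay at or within a few bases of the GENCODE gene end, Klf6 and Klf13, and for Klf9 and Klf15 with lower values. Each line holds the 250 bases before the RefSeq start in GRCm38.p6, 5′ to 3′ on the gene's strand. Capitals mark letters that were searched on both strands. The GC box was searched as GGGCGG. The CACCC box, the other common KLF site, was searched as CCACCC, and it can overlap a GC box. The E-box, the site of clock and Myc proteins, was searched as CACGTG. The windows are chr13:5861239-5861488 (plus) for Klf6, chr7:63938916-63939165 (minus) for Klf13, chr19:23140976-23141225 (plus) for Klf9 and chr6:90462326-90462575 (plus) for Klf15.
Klf6: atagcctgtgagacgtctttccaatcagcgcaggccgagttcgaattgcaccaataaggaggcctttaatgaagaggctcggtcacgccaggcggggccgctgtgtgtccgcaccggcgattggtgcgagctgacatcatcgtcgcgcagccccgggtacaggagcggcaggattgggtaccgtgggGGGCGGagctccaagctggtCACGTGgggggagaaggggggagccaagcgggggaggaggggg
Klf13: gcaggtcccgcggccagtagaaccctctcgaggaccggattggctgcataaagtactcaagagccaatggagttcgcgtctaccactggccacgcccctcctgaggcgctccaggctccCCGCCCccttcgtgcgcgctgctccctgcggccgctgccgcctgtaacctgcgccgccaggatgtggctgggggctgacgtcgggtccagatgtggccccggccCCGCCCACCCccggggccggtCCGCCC
Klf9: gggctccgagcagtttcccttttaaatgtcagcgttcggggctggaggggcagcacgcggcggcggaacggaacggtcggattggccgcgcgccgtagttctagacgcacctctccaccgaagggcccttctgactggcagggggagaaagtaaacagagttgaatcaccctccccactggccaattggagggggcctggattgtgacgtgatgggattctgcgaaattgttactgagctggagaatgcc
Klf15: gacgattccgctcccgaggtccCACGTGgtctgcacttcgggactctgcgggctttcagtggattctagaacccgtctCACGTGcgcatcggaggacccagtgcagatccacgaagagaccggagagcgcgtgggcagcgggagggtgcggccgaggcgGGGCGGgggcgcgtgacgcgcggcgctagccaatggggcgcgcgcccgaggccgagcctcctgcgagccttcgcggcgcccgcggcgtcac
Klf6 held 1 GC box and 1 E-box, Klf13 held 3 GC boxes and 1 CACCC box that overlaps a GC box, Klf15 held 1 GC box and 2 E-boxes, and the window of Klf9 held none of these letters. A GC box was in 32.7% of all 32851 promoter windows of this length, a CACCC box in 28.1% and an E-box in 6.02%. CCAAT, searched on both strands like the others and found in 33.9% of windows, occurred 4 times before Klf6, 3 times before Klf9, 2 times before Klf13 and once before Klf15. The letters AGAACA, part of a glucocorticoid receptor site and present in 16.1% of windows, were not found before any of the 8 members with a window. The AP-1 letters TGANTCA (6.75% of windows) occurred once, before Klf9. The windows of Klf6, Klf13, Klf9 and Klf15 were 64.8%, 71.6%, 59.6% and 72.0% GC, against a median of 52.4% over all windows. These matches describe letters and not binding.

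The other KLF and Sp genes were not members and are given with the adjusted p of the model, under the limit stated for Klf7. Of 8 other KLF names, 7 were in the annotation and 4 were tested, with 1 called higher (Klf16) and 3 lower (Klf1, Klf7 and Klf11) and a median log2 fold change of -0.70 against -0.0033 over all genes. Sp factors bind the same GC boxes through related fingers. Of 9 Sp genes, 5 were tested, 2 rose and 0 fell. Sp3 rose from 36.0, 28.2 and 34.1 CPM to 44.6, 44.5 and 44.5 CPM (log2 fold change 0.44, SE 0.11, edgeR adjusted p = 0.00961). Sp5, a target of Wnt signalling, rose from 1.57, 1.39 and 1.66 CPM to 3.06, 4.84 and 4.20 CPM (1.39, SE 0.23, adjusted p = 0.000801). Sp1, the general GC box activator, was not called (0.14, SE 0.13, adjusted p = 0.414), nor were Sp2 (0.32, SE 0.16, adjusted p = 0.136) and Sp4 (-0.15, SE 0.19, adjusted p = 0.578). Sp6 had 0 counts, and Sp7, Sp8 and Sp9 had at most 6 counts in a library.

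Co-repressors recruited by KLFs include CtBP, Sin3 and the histone deacetylases. Of 10 such genes tested, 3 rose and 1 fell, with a median log2 fold change of 0.28. The histone chaperone gene Rbbp7 rose by 0.88 (SE 0.11, edgeR adjusted p = 0.000163), Hdac1 by 0.54 (SE 0.12, adjusted p = 0.00509) and Hdac2 by 0.70 (SE 0.12, adjusted p = 0.00117). Sin3b fell by 0.33 (SE 0.11, adjusted p = 0.0289), and this call was lost without 0 h replicate 1 or 48 h replicate 1, 2 or 3 (adjusted p 0.0525 to 0.123). Scaled by library size alone, 7 rose and 0 fell. Rbbp4 was not called (-0.05, SE 0.10, adjusted p = 0.734).

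Genes linked to Klf6 in other settings were mixed. Of 8 tested, 1 rose and 3 fell, and the median was -0.45. The cyclin-dependent kinase inhibitor Cdkn1a rose from 7.52 ± 1.13 to 81.2 ± 12.5 CPM (SD, n = 3, log2 fold change 3.43, SE 0.16, edgeR adjusted p = 1.19e-07). The autophagy gene Atg7 fell by 0.79 (SE 0.15, adjusted p = 0.00208), and Eng fell as given above. Igf1r, the IGF1 receptor, fell by 0.68 (SE 0.22, adjusted p = 0.0292), a call lost without 0 h replicate 2 or 3 or 48 h replicate 2 or 3 (adjusted p 0.0592 to 0.107). The TGF-beta receptor Tgfbr1 was not called (0.31, SE 0.15, adjusted p = 0.127), but passed without 0 h replicate 2 (0.50, adjusted p = 0.00589).

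Amino acid enzymes linked to Klf15 moved one way where they were called. Of 10 tested, 0 rose and 5 fell, with a median of -0.63. Tdo2, which opens tryptophan breakdown, fell from 726 ± 59.9 to 222 ± 30.4 CPM (log2 fold change -1.71, SE 0.15, edgeR adjusted p = 1.01e-05), and the alanine aminotransferase Gpt fell by 0.81 (SE 0.14, adjusted p = 0.00102). The aspartate aminotransferase Got1 fell by 0.79 (SE 0.27, adjusted p = 0.0354), with overlapping libraries and a call lost without 0 h replicate 1 or 3 or 48 h replicate 2 or 3 (adjusted p 0.0743 to 0.109). Tat, the tyrosine aminotransferase, was not called (-0.37, SE 0.27, adjusted p = 0.299), but passed without 48 h replicate 1 (-0.81, adjusted p = 0.00324).

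Klf9 is known as a target of glucocorticoid and thyroid hormone, so other targets of both were counted. Of 12 glucocorticoid-responsive genes tested, 6 rose and 3 fell (median 0.69). The metallothionein Mt1 rose by 5.06 (SE 0.50, edgeR adjusted p = 3.05e-05), or by 4.41 without 48 h replicate 1. Fkbp5 rose by 2.21 (SE 0.13, adjusted p = 7.33e-07) and the clock gene Per1 by 1.17 (SE 0.12, adjusted p = 3.11e-05). Tsc22d3, which encodes the glucocorticoid-induced leucine zipper, fell by 1.52 (SE 0.20, adjusted p = 0.000187) and the phosphatase gene Dusp1 by 1.40 (SE 0.16, adjusted p = 8.75e-05). Errfi1 fell by 0.44 (SE 0.15, adjusted p = 0.0345), a call lost without 0 h replicate 1 or 3 or 48 h replicate 2 or 3 (adjusted p 0.0833 to 0.114). Klf9 thus differed in the same direction as Tsc22d3 and in the opposite direction to Fkbp5. Of 7 thyroid hormone genes, 1 rose and 5 fell (median -0.88). Besides targets, that list holds the thyroid hormone receptors Thra (log2 fold change -0.96, SE 0.11, adjusted p = 0.000105) and Thrb (-0.64, SE 0.12, adjusted p = 0.00233), both among the 5 that fell and named here after their values were seen. The lipogenic regulator Thrsp fell by 2.07 (SE 0.29, adjusted p = 0.000319), the deiodinase Dio1 by 1.87 (SE 0.18, adjusted p = 2.1e-05) and malic enzyme Me1 by 0.88 (SE 0.19, adjusted p = 0.00432). Bcl3 rose by 0.70 (SE 0.12, adjusted p = 0.0011), and Hr was not called (0.20, SE 0.64, adjusted p = 0.83).

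TGF-beta early genes were counted beside Klf10 and Klf11. Of 11 tested, 5 rose and 2 fell (median 0.21). Id2, an inhibitor of DNA binding, fell by 0.67 (SE 0.14, edgeR adjusted p = 0.00301). The calls of Ski, Id3 and Smad6 depended on single libraries. The repressor gene Ski rose by 0.36 (SE 0.12, adjusted p = 0.0383) but was lost without 0 h replicate 1 or 2 or 48 h replicate 1 or 2 (adjusted p 0.0578 to 0.141). Id3 rose by 0.43 (SE 0.15, adjusted p = 0.0384) but was lost without 0 h replicate 1 or 3 or 48 h replicate 2 or 3 (adjusted p 0.0669 to 0.146). The inhibitory Smad6 fell by 0.47 (SE 0.16, adjusted p = 0.0353) but was lost without 0 h replicate 1 or 3 or any single 48 h library (adjusted p 0.0536 to 0.121). Tgif1 was not called (0.21, SE 0.12, adjusted p = 0.203).

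Klf6, Klf10, Klf2 and Klf4 are often counted among immediate early genes. Of 20 other immediate early genes, 18 were tested, 6 rose and 5 fell (median -0.19). Fosb rose by 1.82 (SE 0.30, edgeR adjusted p = 0.000911) and Fosl2 by 0.99 (SE 0.14, adjusted p = 0.000357). Fos rose by 0.64 (SE 0.17, adjusted p = 0.0121) and by 0.41 without 48 h replicate 2, and its call was lost narrowly without 0 h replicate 3 (adjusted p = 0.05004). The RNA-decay factor Zfp36 fell by 1.28 (SE 0.18, adjusted p = 0.00029), Ier2 by 1.05 (SE 0.19, adjusted p = 0.00166) and Junb by 0.88 (SE 0.16, adjusted p = 0.00157). Egr1 was not called (-0.46, SE 0.19, adjusted p = 0.0795), but passed without 48 h replicate 2 (-0.70, adjusted p = 0.0111), with upper quartile factors (0.0394), with TMM factors of protein-coding genes (0.0492), with no filter (0.018) and with DESeq2 (0.0431).

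Klf9, Klf10 and Klf15 cycle with the day in liver, so clock genes were counted too. Of 18 tested, 7 rose and 5 fell (median 0.25). The activator gene Arntl fell by 1.96 (SE 0.33, edgeR adjusted p = 0.000989) and the repressor gene Nr1d1 by 1.48 (SE 0.18, adjusted p = 0.000139). Per1 rose as given above, Tef rose by 0.75 (SE 0.14, adjusted p = 0.0021) and Nr1d2 by 0.59 (SE 0.14, adjusted p = 0.00795). Bhlhe40 was not called (-0.05, SE 0.18, adjusted p = 0.83). The part of the hour of collection in the values of Klf9, Klf10 and Klf15 was not tested.

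Genes outside these lists whose pattern was most like that of Klf6 were found by the root mean square difference of centred log2 CPM over the 6 libraries. They were Pold1, the catalytic subunit of DNA polymerase delta (0.131), the glutathione peroxidase relative Gpx7 (0.147), lamin B1, Lmnb1 (0.155), the dynein light chain Dynll1 (0.159) and the sulfotransferase Sult1a1 (0.164). Pold1 stood at 4.56, 3.54 and 5.15 CPM at 0 h and at 30.2, 25.9 and 21.2 CPM at 48 h. Like Klf6, all 5 had their lowest 48 h level in replicate 3, and no test is given because they were picked for this likeness.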

How the data were processed

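The authors counted reads of 6 hepatocyte RNA-Seq libraries on genes and deposited unnormalized counts for each gene. The submitters' processing notes name FastQC 0.11.5, Trim Galore 0.6.4, STAR 2.6, HTSeq 0.12.4, DESeq2 and build mm10. The strand setting is not given in the sources used here. All 55450 identifiers matched GENCODE M21, which gave names, coordinates and exon lengths. Reads on no gene (24.3% to 32.7% of reads listed) and reads listed as ambiguous (4.27% to 5.29%) stayed out.

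Samples were grouped by the labelled time point. Members and gene lists were chosen with earlier results of these data known. Genes that reached 10 counts in 3 or more libraries were fitted with edgeR 4.0.16 (R 4.3.3, TMM, quasi-likelihood test, time as the only term), with Benjamini-Hochberg adjustment over 17037 genes and a threshold of 0.05. The SE is the log2 fold change divided by the root of the F statistic. The script was tested on simulated data with known changes. Per list, the text names up to 3 genes called higher and 3 called lower with the highest mean CPM, the highest uncalled gene, every KLF and Sp gene and the 5 genes most like Klf6. In the marker lists only those that touch a result are named, and some genes that the rule names are not reported here. Ctgf was matched as Ccn2. Zinc finger stretches came from GENCODE M21 transcripts and promoters from RefSeq (GRCm38.p6, 8 of 10 members, all but Klf5 and Klf10).  Alternatives were other scalings, filters, DESeq2 1.42.0, limma-voom (limma 3.58.1), a replicate block and leaving out each library. The labels name replicates, and the study describes them as separate hepatocyte preparations.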

Additional observations from a re-analysis of the deposited data

How the results depend on the processing

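Each difference was recomputed under 16 other settings. Klf6 (2.38 to 2.76), Klf9 (-1.18 to -0.83), Klf10 (-1.46 to -0.99), Klf12 (-0.94 to -0.62), Klf13 (0.38 to 0.66) and Klf15 (-0.93 to -0.65) did not change sign in any of them. Scaling by library size alone shifted the median of all genes to 0.20 (log2) and called 5308 higher and 2110 lower in place of 3638 and 3288. Under it Errfi1, Got1, Igf1r, Klf7, Sin3b and Smad6 were no longer called, Sp2, Tgfbr1 and Tgif1 were, Klf3 was 0.56, and Sp4 (0.061), Rbbp4 (0.15) and Bhlhe40 (0.16), none of them called, changed sign. Upper quartile factors dropped the calls of Klf3, Id3 and Ski, protein-coding TMM factors those of Klf3 and Id3, no filter those of Klf3, Sin3b and Smad6, and DESeq2's factors that of Klf3. Leaving out 1 library gave 2649 to 3395 genes higher and 2540 to 3166 lower, members called ran from 2 to 3 higher and 4 to 5 lower, and in the uncalled genes Klf4 ran from -0.15 (without 0 h replicate 1) to 0.53, Hr from -0.34 (without 0 h replicate 2) to 1.22, with -0.0036 without 48 h replicate 1, and Bhlhe40 from -0.21 to 0.091 (without 48 h replicate 1), with 0.08 without 0 h replicate 1. The difference in summed cholangiocyte markers ran from -5.14 to 8.88 CPM and in lymphocyte markers from -0.153 to 0.149 CPM, with -0.000133 as mean log2 CPM. Libraries with the same replicate number showed no shared deviation (correlations 0.0335, -0.0674 and -0.138), and those with unlike numbers ran from -0.0486 to 0.132. With 3 libraries per time point, these values cannot decide whether the numbers pair the samples. A fit with the replicate block called 3237 higher and 2884 lower and kept 87.1% of the calls, but not those of Errfi1, Id3, Igf1r, Klf3, Sin3b, Ski and Smad6. The depth limits Klf5, and the Klf genes at or under 3 counts, to counts.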
